A study of Canis lupus familiaris with 4 samples.

Results

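Genes of MHC class I antigen presentation were examined in mesenchymal stromal cells (MSCs) grown from the adipose tissue of 4 dogs. The set holds 10 genes chosen by symbol: the class I heavy chain DLA88, its light chain B2M, the peptide transporter genes TAP1 and TAP2, the tapasin gene TAPBP, the peptidase gene ERAP1, the transactivators NLRC5 and CIITA, the invariant chain gene CD74 and the costimulatory gene CD80. Of these, 9 were measured among the 30951 genes of the table, each in 1 row, and TAP2 was not analysed here. The set was chosen because DLA88 was far higher in the culture of dog 4, so the differences between dog 4 and the other dogs are given as a description, and intervals of single libraries show counting error and are no test between dogs.

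MSCs are plastic-adherent stromal progenitor cells, and per the series title the study was about how the freeze-dried secretions of these cells act against microbes. All 4 libraries belong to a single group: untreated primary adipose cultures, 1 per dog, kept in DMEM medium with 10% fetal bovine serum and harvested after 48 h, with total RNA sequenced. Breed, age and sex of the animals were not known here, and the spread between dogs includes that between cultures and libraries. Assigned reads numbered 22411268, 16246965, 15203607 and 7474011 in dogs 1 to 4, so dog 4 has the shallowest library. All 8 stromal markers looked at (THY1, ENG, CD44, PDGFRB, PDGFRA, COL1A1, COL3A1 and DCN) lay above the median detected gene, as the cell type label says. Over all detected genes 33.3% were called above it. Dog 4 was the lowest for 5 of the 8 markers and the highest for 2, against 28.8% and 36.8% of all detected genes. The list summed to 1566536, 1423241, 1400037 and 1106449 normalized reads, a large part of them of COL1A1.

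MHC class I molecules display peptides from inside the cell to cytotoxic T cells, and nearly all nucleated cells carry them. The proteasome and peptidases cut proteins, the TAP transporter moves the peptides into the endoplasmic reticulum, tapasin and its partners load them, and the heavy chain reaches the surface with the light chain beta-2 microglobulin. NLRC5 drives transcription of class I genes, and CIITA does so for class II genes, whose products present outside peptides to helper T cells and are mostly kept to professional antigen-presenting cells. Interferon gamma raises both programs, and the level of MHC on stromal cells is a point of interest when cells of a donor are given to another animal.

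The heavy chain DLA88 (ENSCAFG00000000487) had 652, 686, 820 and 4591 normalized reads in dogs 1 to 4, where normalized reads are reads divided by the size factor of the library. Dogs 1 to 3 lay close together and dog 4 lay apart from them, 6.70-fold above their median. The raw reads were 907, 743, 859 and 2117, so the shallowest library held the most reads of this gene, and the exact Poisson 95% interval in dog 4 ran from 4398 to 4791 normalized reads. On the log2 scale of levels, a gene's value minus that of the median detected gene of its library, DLA88 stood at 2.08, 2.13, 2.38 and 4.86. Detection asked for reads in at least 2 of the libraries, which 17200 genes met. The level in dog 4 exceeded the median of the other dogs by 2.73, and 0.419% of the detected genes had a difference at least as large. The values chose the gene, so nothing is read from this share. The difference remained between 2.60 and 2.75 when dog 1, 2 or 3 was left out, and it was 2.74 with the reads of all libraries thinned to the depth of dog 4.

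**Figure D1:**
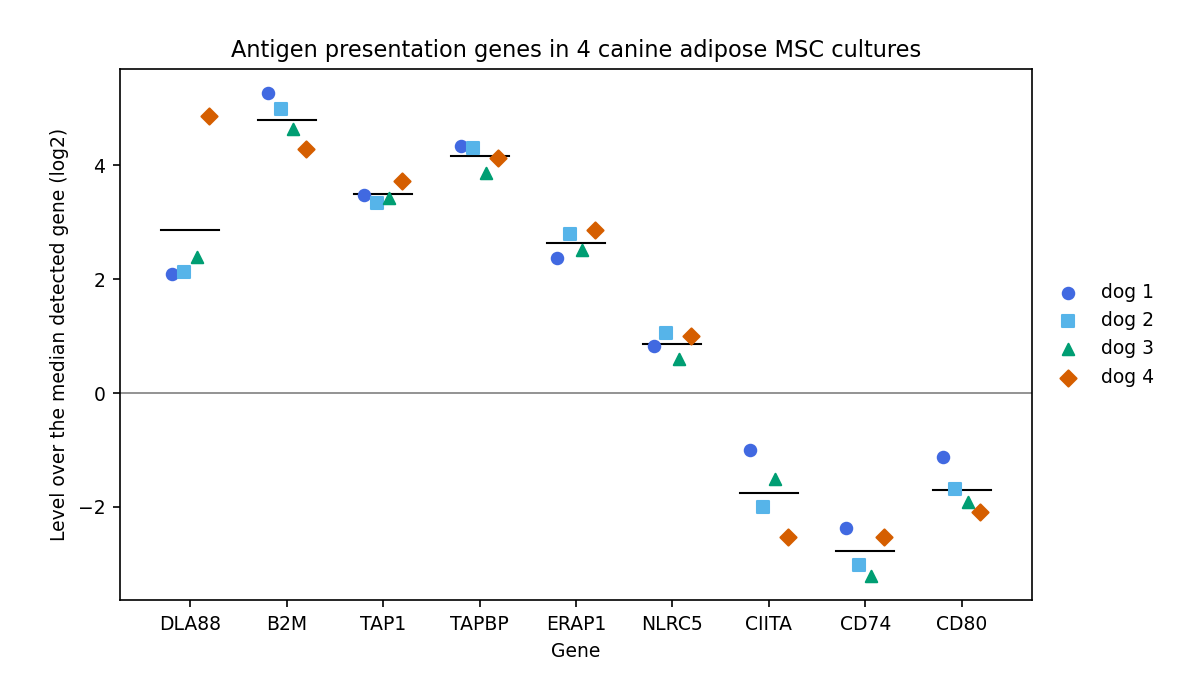
Level of the 9 measured genes in each dog (y axis, log2 over the median detected gene of the same library, marked by the grey line; x axis, gene). Each symbol is 1 dog and each black line the mean of 4. Dog 4 stands at 4.86 for DLA88 against 2.08 to 2.38 in the other dogs, while the symbols of TAP1, TAPBP, ERAP1 and NLRC5 lie close together.

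The light chain gene B2M (ENSCAFG00000013633), whose protein joins every class I heavy chain, had 6093, 5109, 4007 and 3082 normalized reads. Dog 4 was thus the lowest for the light chain and the highest for the heavy chain DLA88. Its B2M level was 0.70 log2 units under the median of the others (dog 4 minus the other dogs, -0.70), or 0.603 of their median in normalized reads. Per read of B2M there were 0.107, 0.134, 0.205 and 1.49 reads of DLA88. Gene length cancels when such a ratio of the same genes is compared between dogs. A difference between dogs in how reads are assigned to class I copies would not cancel. B2M lay above the median detected gene in 4 of 4 dogs, with a level of 4.80 ± 0.43 (log2, mean ± SD, n = 4; limma, distance of 1 log2 unit, Benjamini-Hochberg adjusted p = 1.65e-08).

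The class I chains in the table differed in which dog was highest. The nonclassical chain DLA-64 had 2770, 1845, 1320 and 1264 normalized reads, so dog 4 was at the low end of this gene, next to dog 3. DLA-79, a further class I gene that lies outside the MHC region, had 27.3, 85.8, 64.9 and 4.34, and its value in dog 4 rests on 2 reads. Of the reads of DLA88 and DLA-64 together, DLA88 took 19.0% in dog 1 (exact Clopper-Pearson 95% interval 17.9 to 20.2), 27.1% in dog 2 (25.4 to 28.8), 38.3% in dog 3 (36.3 to 40.4) and 78.4% in dog 4 (76.8 to 79.9). These intervals cover counting error only. The sum of DLA88, DLA-64 and DLA-79 was 3449, 2616, 2205 and 5860 normalized reads, and in dog 4 most of this sum was DLA88 itself. Class I genes are near-identical copies and differ between individual dogs, so the split of reads among them is uncertain, and how the reads were assigned to copies is not known here. The part of this in the value of dog 4 was not tested.

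**Figure D2:**
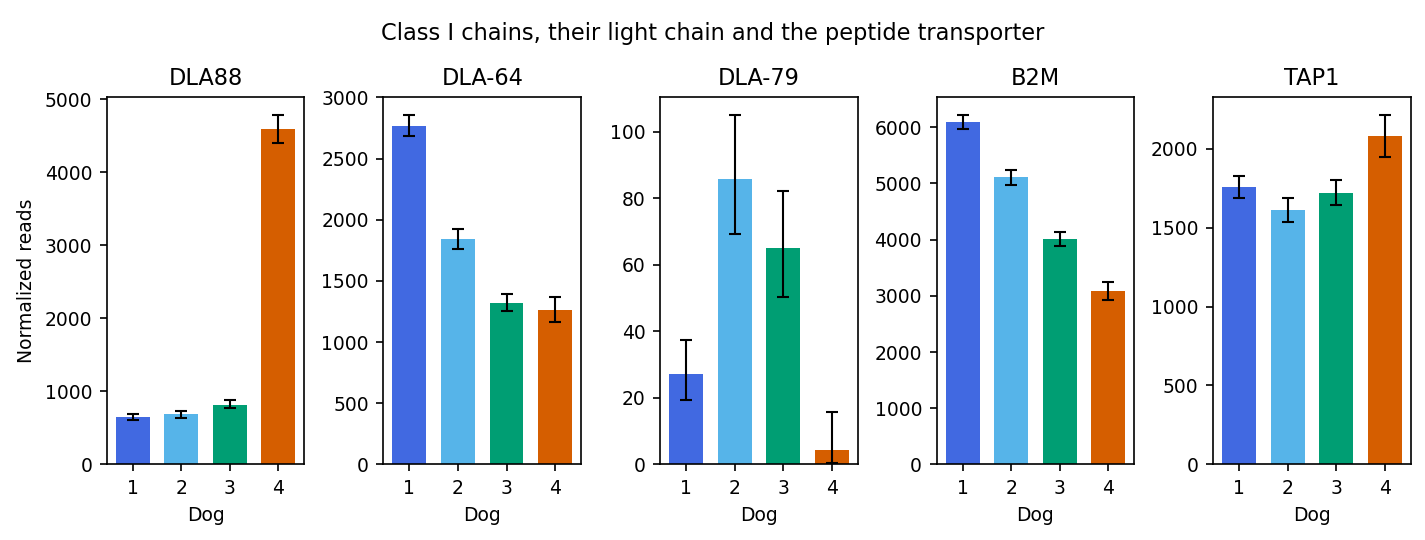
Normalized reads (y axis, linear from 0, a separate scale per gene) of 3 class I chains, B2M and TAP1 by dog (x axis). Bars are single libraries and error bars exact Poisson 95% intervals of their reads, which cover counting error only. DLA88 reaches 4591 in dog 4 against at most 820 elsewhere, while B2M and DLA-64 are lowest there, at 3082 and 1264.

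TAP1, TAPBP and ERAP1, which act in peptide transport, loading and trimming, lay close together in the 4 dogs, with the highest dog 1.29-fold over the lowest for TAP1, 1.36-fold for TAPBP and 1.42-fold for ERAP1, against 7.05-fold for DLA88. TAP1 (ENSCAFG00000000832), a subunit of the transporter that carries peptides into the endoplasmic reticulum, had 1758, 1609, 1719 and 2080 normalized reads. Dog 4 was the highest, 1.21-fold over the median of the others, against 6.70-fold for DLA88. TAPBP (ENSCAFG00000000972) encodes tapasin, which bridges the transporter and the empty class I molecule, and it had 3184, 3160, 2342 and 2763 normalized reads, with dog 4 between the others. ERAP1 (ENSCAFG00000007810), the aminopeptidase that trims peptides to fit the groove, had 802, 1097, 899 and 1136, and dogs 2 and 4 were nearly equal. Levels above the median detected gene were 3.50 ± 0.17 for TAP1, 4.16 ± 0.21 for TAPBP and 2.64 ± 0.23 for ERAP1 (log2, mean ± SD, n = 4). All were called above it on the mean of the 4 dogs, with adjusted p of 2.14e-08, 8.01e-09 and 8.90e-07 (limma, Benjamini-Hochberg). Each level lay above it in 4 of 4 dogs.

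The transactivator genes differed in level. NLRC5 (ENSCAFG00000008933), the transactivator of class I promoters, had 260, 317, 223 and 297 normalized reads, with dog 2 highest and dog 4 next to it. Its level was 0.87 ± 0.21 (log2, mean ± SD), and it did not pass the test at a distance of 1 log2 unit (limma adjusted p = 0.976, n = 4). CIITA (ENSCAFG00000018931), the transactivator of class II promoters, had 59.6, 22.1, 38.2 and 10.8 normalized reads, from 83, 24, 40 and 5 reads. It was lowest in dog 4, with exact Poisson 95% intervals of 3.52 to 25.3 normalized reads there and 14.2 to 33.0 in dog 2. Its level was -1.76 ± 0.65, below the median detected gene (limma adjusted p = 0.0203, n = 4, below in 4 of 4 dogs). That call was lost without dog 2 (-1.68, adjusted p = 0.0695) or dog 4 (-1.51, adjusted p = 0.0587).

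The genes of class II handling and costimulation in the set were low, and CD74 was near the floor. CD74 (ENSCAFG00000018101), the invariant chain that guards the class II groove, had 19, 5, 3 and 5 reads in dogs 1 to 4. That corresponds to 13.6, 4.61, 2.86 and 10.8 normalized reads and a level of -2.78 ± 0.40, below the median detected gene (limma adjusted p = 5.86e-05, n = 4). CD80 (ENSCAFG00000010997), a ligand that costimulates T cells through CD28, had 75, 34, 26 and 9 reads, or 53.9, 31.4, 24.8 and 19.5 normalized reads, highest in dog 1. CD80 was below as well, at -1.70 ± 0.42 (limma adjusted p = 0.0155, n = 4), though not without dog 3 (-1.63, adjusted p = 0.0519). The calls of CIITA and CD80 were also lost without the filter on detection (adjusted p = 0.0669 and 0.0520).

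Of the 8 measured genes other than DLA88, all passed the detection filter, 4 were called above the median detected gene, and 3 were below it, with NLRC5 in neither class. Over all 17200 detected genes 33.3% were above and 35.8% below. The median level of the 8 genes was 1.75 against -0.02 over all detected genes. No correction for length was made, so levels rank genes only roughly. When the reference was the median of the 13834 genes with reads in all 4 dogs, it rose by 0.82 log2 units, the same 4 and 3 calls stood, and NLRC5 fell to 0.05. In the test of a gene's variance between dogs against limma's trend over all genes, 0 of the 8 passed, as did 0% of all detected genes, and at an unadjusted p under 0.05 there were 0 of 8 and 895 of 17200. The SD between dogs ran from 0.17 (TAP1) to 0.65 (CIITA), with 0.36 the median over all detected genes. By Dixon's criterion for 4 samples, 1 dog stood apart for 0 of these 8 genes, where the share over all detected genes was 5.35%. The SD of DLA88 was 1.34 with dog 4 and 0.16 over dogs 1 to 3.

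Of the 8 genes other than DLA88, dog 4 was the highest for 2 (TAP1 and ERAP1), the lowest for 3 (B2M, CIITA and CD80) and between the others for 3 (TAPBP, NLRC5 and CD74). Over all detected genes it was the highest for 36.8% and the lowest for 28.8%. The 8 genes had level differences between -1.02 (CIITA) and 0.50 (CD74) from the median of dogs 1 to 3, on the log2 scale.

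**Figure D3:**
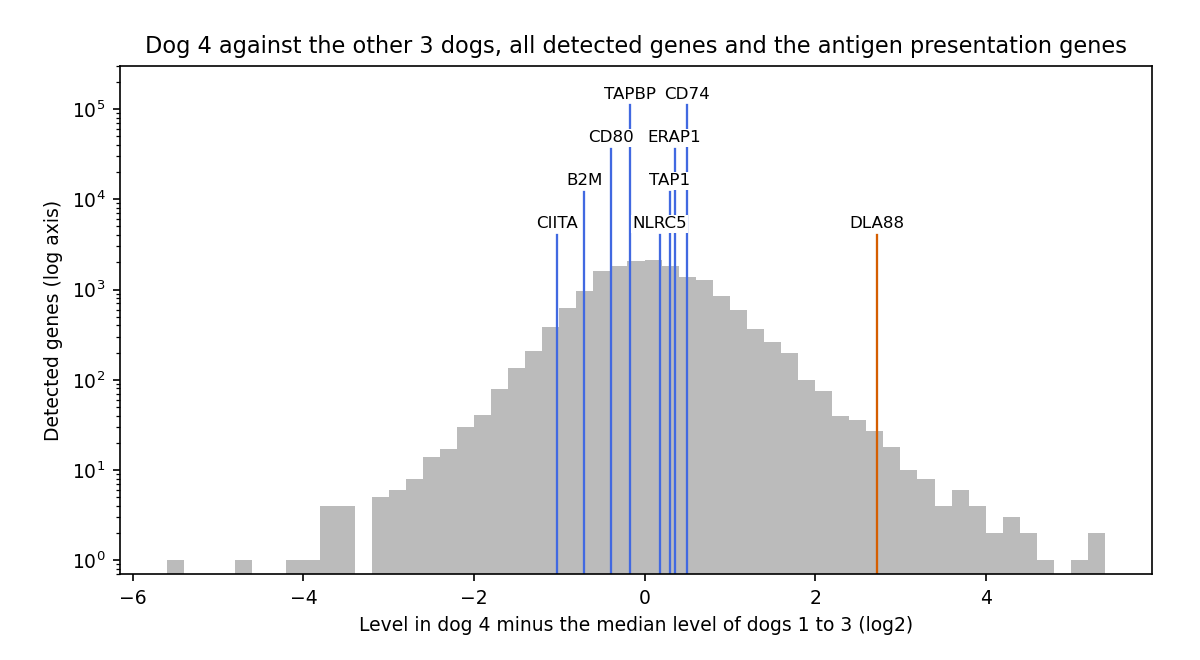
Distribution over 17200 detected genes of the level in dog 4 minus the median level of dogs 1 to 3 (x axis, log2; y axis, number of genes, log axis). Vertical lines mark the 9 genes. DLA88 lies at 2.73 and the other 8 between -1.02 and 0.50.

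The rest of the pathway was taken from 6 lists with 114 entries, of which 85 were measured and 73 detected. Above the median detected gene were 44 of these 73, 9 were below and 20 neither, and the median level was 1.78. The shares over all detected genes, 33.3% above and 35.8% below, hold beside the counts of each list that follows. With the reference over genes with reads in all 4 dogs, the 6 lists had 31 above and 13 below. Over all genes tested there were then 3729 and 7479 in place of 5723 and 6163. Dog 4 was the highest for 24 and the lowest for 28 of the 73, and the median difference of dog 4 from the others was -0.01 against 0.05 over all detected genes.

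Genes that load class I molecules and check their folding were abundant. Of 13 detected, 12 were above, none below and 1 neither, with a median level of 4.99. The chaperones calnexin (CANX) and calreticulin (CALR) and the oxidoreductase PDIA3, which hold the heavy chain during loading, had levels of 6.13 ± 0.16, 5.88 ± 0.35 and 5.63 ± 0.23. The translocon gene SEC61A1 had 7.04 ± 0.13 and the disulfide isomerase gene P4HB 6.57 ± 0.10. TAPBPL, a second editor of class I peptides, was neither, at -0.26 ± 0.19. Many of these proteins also fold other secretory cargo.

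Among 13 detected genes of peptide supply, 9 were above, 1 below and 3 neither. The cytosolic aminopeptidases NPEPPS (4.46 ± 0.05) and LAP3 (3.79 ± 0.44) led. The proteasome activator subunit PSME1 was above at 1.82 ± 0.30, and its partner PSME2 was neither at 1.05 ± 0.53, with 374, 218, 234 and 488 normalized reads. The immunoproteasome subunits PSMB9 (-0.54 ± 0.31) and PSMB10 (0.19 ± 0.30), which shift cleavage toward class I peptides, were neither. PSMB9 had 97.0, 72.0, 75.4 and 124 normalized reads. ERAP2, the second trimming peptidase, was the member of this list called below, at -1.81 ± 0.67, but not without dog 2 (-1.67). It had 49.6, 16.6, 47.7 and 10.8 normalized reads, lowest in dog 4.

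Of 19 detected promoter regulators of MHC genes, 10 were above, 1 below and 8 neither. The interferon gamma signalling genes JAK1 (4.99 ± 0.24) and JAK2 (4.24 ± 0.55) and the NF-kB subunit genes NFKB1 (4.16 ± 0.03) and RELA (3.69 ± 0.14) were above. JAK2 had 3220, 2475, 2086 and 4932 normalized reads, highest in dog 4. IRF1, which binds class I promoters, was above at 1.78 ± 0.24 with 657, 526, 531 and 427 normalized reads, lowest in dog 4. Of the 19, dog 4 was the highest for 5 and the lowest for 8, against 36.8% and 28.8% of all detected genes. RFX5, RFXAP and RFXANK, the 3 subunits of the complex on which both transactivators dock, were neither (0.37 ± 0.33, 0.98 ± 0.24 and -0.19 ± 0.33). RFX5 had 157, 182, 158 and 265 normalized reads, highest in dog 4. SOCS1, which inhibits JAK kinases, was below with 2, 0, 3 and 3 reads.

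The measured class II chains other than DLA-DMA were at or near 0. Of DLA-DRA there were 6 reads, all from dog 4, and of DLA-DQA1 15, all from dog 1. DLA-DOA had 1 read, from dog 2, and HLA-DQB1 had 0 in every dog. A count of 0 allows up to 0.134, 0.185, 0.197 and 0.401 CPM, counts per 1000000 assigned reads, in dogs 1 to 4 (3 reads, counting error only). The peptide editor gene DLA-DMA was neither (-1.21 ± 0.78), with 63, 17, 91 and 37 reads. Of the 29 entries of class II handling 14 were measured, and nothing is known here of the rest. Of these 14 genes 6 were above, 2 below, 2 neither and 4 not detected. The lysosomal proteases CTSD (4.59 ± 0.28) and CTSB (4.55 ± 0.17) were above, and CTSS, the protease that cleaves the invariant chain in professional antigen-presenting cells, was below at -2.31 ± 0.55.

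Of the costimulatory and checkpoint list, 5 of 13 detected genes were above, 4 below and 4 neither. These counts lay near the shares over all detected genes, 33.3% above and 35.8% below. Its highest members were the adhesion ligand ICAM1 (3.78 ± 0.36), the B7 family gene CD276 (3.59 ± 0.22) and CD47 (2.99 ± 0.30). The checkpoint ligand gene CD274, which encodes PD-L1, was below at -2.43 ± 0.50 with 10, 6, 21 and 11 reads. PDCD1LG2, VTCN1, CD48 and CD86, the partner of CD80, had 0 reads in every dog. The class I-like gene FCGRT, the neonatal Fc receptor that also pairs with B2M, was above at 1.45 ± 0.49, but not without dog 3 (1.46) or dog 4 (1.22). It had 290, 372, 406 and 677 normalized reads, highest in dog 4. HFE, another partner of B2M, was neither (-0.97 ± 0.16). Of the 5 detected class I and class I-like genes, DLA88 apart, 2 were above (DLA-64, at 3.44 ± 0.52, and FCGRT), 2 neither and 1 below. The latter was PROCR, the receptor of protein C, at -1.75 ± 0.52 and not below without dog 2 (-1.52). DLA-79 was neither (-1.59 ± 1.08) but below without dog 2 (-1.92).

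**Figure D4:**
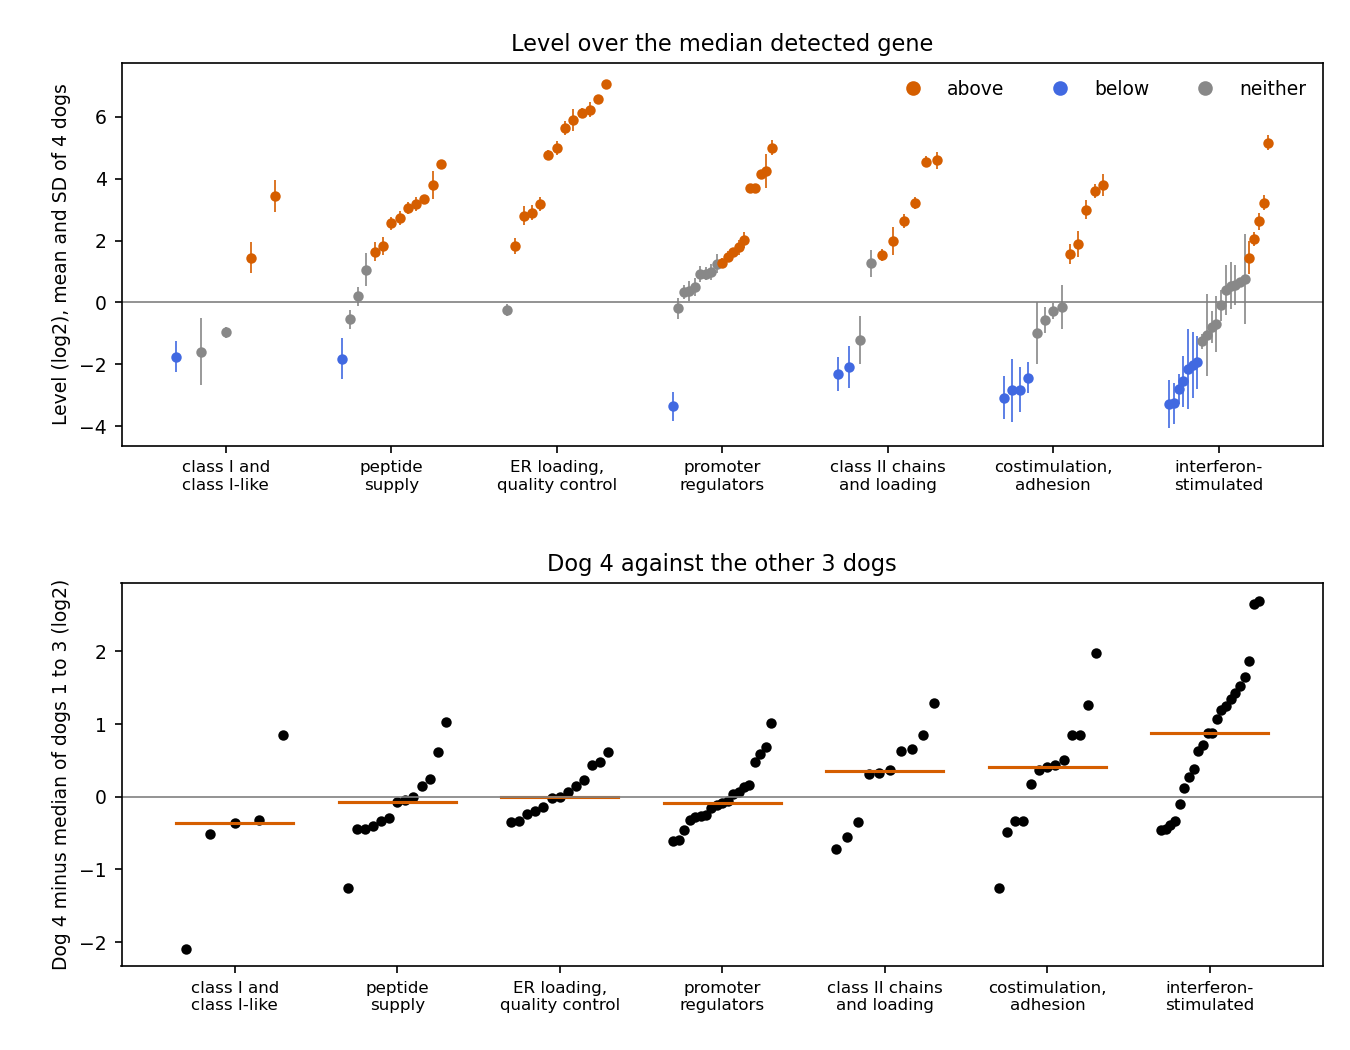
Genes of the 6 pathway lists and of the interferon-stimulated list (x axis), detected genes only. The upper panel gives the level (y axis, log2, mean and SD of 4 dogs) coloured by call, and the lower panel the level in dog 4 minus the median of dogs 1 to 3 (y axis, log2) with the list median as an orange line. The list of loading and quality control has 12 of 13 genes above, and the medians in the lower panel run from -0.37 for class I-like chains to 0.87 for interferon-stimulated genes.

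Some interferon-stimulated genes were high in dog 4 beside DLA88. Of 22 detected, 10 exceeded the median of the other dogs by at least 1 log2 unit in dog 4, where the share over all detected genes was 10.2%, and none lay as far below (5.42% of all detected genes). MX2, an antiviral GTPase, had 161, 216, 89.7 and 1115 normalized reads, and RSAD2, the antiviral enzyme viperin, 20.1, 60.0, 24.8 and 254. Some of the 10 rested on few reads. XAF1 had 0, 8.30, 0 and 10.8 normalized reads, and IFIT1 had 5.75, 20.3, 0.955 and 30.4. OAS2 and STAT2 had other profiles. OAS2 had 695, 744, 657 and 505 normalized reads and STAT2 had 1013, 1177, 981 and 733, both lowest in dog 4. By level, 5 of the 22 were called above, 7 below and 10 neither, and without dog 3 the number below was 4. Over all detected genes 33.3% were above and 35.8% below. Whether these genes and DLA88 moved together for a shared reason was not tested.

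Markers of blood and antigen-presenting cells were looked at beside the value of dog 4. Of 12 measured, AIF1, MS4A1, CD3E and LYZ had 0 reads in all dogs, and PTPRC had 0, 0, 5 and 0 reads. Of the 5 detected, 1 was above the median detected gene (CD79A, level 5.31), 3 were below and 1 was neither (CSF1R, 0.09). The whole list summed to 7443, 6144, 6706 and 5845 normalized reads, nearly all of them of CD79A. Without CD79A and CSF1R, left out after their values were seen, the list summed to 26.6, 11.1, 42.0 and 43.4. CD68, a lysosomal protein of macrophages, had 5.03, 3.69, 4.77 and 19.5 normalized reads, highest in dog 4, from 9 reads there. Among 5 endothelial markers PECAM1 had 0 reads in all dogs, none was above and 2 were below. The 8 stromal markers summed lower in dog 4 than in the other dogs, with a median level difference of -0.20 (log2, dog 4 minus the median of the others), and 1 of them lay at least 1 log2 unit lower. That was the growth factor receptor gene PDGFRA, which had 2327 normalized reads in dog 4 against 5768, 4122 and 6218 in dogs 1 to 3. The collagen gene COL1A1, a large part of each sum, had 376360 against 647793, 658671 and 658936. Dog 4 was the highest for 2 of the 8 stromal markers, so the lower sum is not a drop of every marker. The part of other cell types, or of the lower stromal markers, in the DLA88 and interferon-stimulated gene values of dog 4 was not tested. In bulk RNA, more cells of a type and more RNA per cell cannot be told apart.

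Of 17199 other detected genes, the 8 named ones nearest to DLA88 by the Euclidean distance between the 4 centred log2 levels were PPP1R12B, VWA1, HAPLN1, PLEKHG5, PC, SLC24A3, HYDIN and COL8A2, at distances of 0.27 to 0.37. PPP1R12B, a myosin phosphatase subunit, had 139, 144, 205 and 926 normalized reads, and the pyruvate carboxylase gene PC 185, 231, 334 and 1748. HAPLN1, a link protein of hyaluronan, had 30.9, 26.8, 28.6 and 269. Of the 103 detected genes of the set, the pathway lists and the interferon list, RSAD2 (0.89, rank 114), BST2 (0.89, rank 115) and MX2 (1.01, rank 201) came nearest. Nearness here mostly says that dog 4 was high by a similar amount, and 4 points carry no test.

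Genes next to DLA88 in the gene order of the RefSeq annotation (assembly UU_Cfam_GSD_1.0, used for order only) were also read. Among the 5 nearest detected genes on either side, dog 4 differed from the median of the other dogs by -0.52 to 1.18 on the log2 scale, with a median of -0.21. TCF19 (-0.12) and CCHCR1 (0.28) lie on one side and DLA-64 (-0.52) on the other, and the highest was the collagen receptor gene DDR1 (1.18), with 67.5, 209, 145 and 349 normalized reads. None of the 10 reached the 2.73 of DLA88, but only 0.419% of all detected genes did, so nothing is read from this count.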

How the data were processed

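Total RNA of 4 canine adipose MSC cultures was sequenced, 1 library per dog, from 10 ng of RNA with a stranded kit that depletes ribosomal RNA, per the labels' protocols. FastQC 0.12.1, Trimmomatic 0.39, STAR 2.7.11a, DESeq2 and the build CanFam3.1 were used, per the submitters' processing notes. The read counter, annotation and use of strand are not given in the sources here, so reads of overlapping genes cannot be told apart. The deposited log2 values were variance-stabilized by the authors, per the file headers. Columns were matched to dogs by number. The value of 0 reads is the lowest in the table, and the closed inverse of the transformation gave whole reads, within 0.01, for 100% of values. Reads gave depth, normalized reads and intervals, and tests ran on the log2 values.

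Levels were values minus the median detected gene of each library. They entered limma 3.58.1 (under R 4.3.3): 1 intercept, prior with trend, a distance of 1 and Benjamini-Hochberg adjustment over all 17200 detected genes at 0.05. Variance was set against the trended prior by an F test. P-values of levels test the mean against the distance of 1. Their error is the spread between these 4 cultures, moderated by the prior with trend. Both tests were run on simulated data with known levels and spreads, and the outcome is not given here, so nothing is read from it. For symbols with several rows the highest was used. Genes named are the set, its lists and the 8 nearest profiles. The set and lists were chosen with earlier results of these data known. Alternatives covered the reference, distance, scale, scaling, filter, prior, depth and each dog left out. Gene sequences and coding lengths were not used here.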

Additional observations from a re-analysis of the deposited data

Results flagged for a closer look

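Genes are given here for which the distance of 1 dog from its closest neighbour, as a share of the span of all 4 deposited values, exceeded Dixon's 95% critical value for 4 samples. DLA88 in dog 4 (ratio 0.884, high side) was chosen for this pattern, so its ratio is a description only. Among the 120 other detected genes of the set and of all lists, 6 exceeded the value. Chance flags about 1 in 20 groups, and 5.35% of all detected genes exceeded it. CD68 stood apart on the high side in dog 4 (0.863), with few reads. On the low side in dog 4 were PSME3, a proteasome activator (0.848), the NF-kB gene NFKB1 (0.849), the adhesion ligand CD58 (0.837) and the collagen gene COL1A1 (0.970). PDIA3 was apart in dog 1 on the high side (0.950). NFKB1 differed little in size, with 2870, 2896, 2876 and 2728 normalized reads.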

How the results depend on the processing

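Of 80 levels of single genes recomputed under another setting, 74 kept their call, 5 lost it (CIITA and CD80, given above) and 1 gained it (NLRC5 at a distance of 0.5, adjusted p = 0.0201). Without the filter on detection, undetected genes also entered the fit and its adjustment. Below the median detected gene were then 1 gene of the set in place of 3, and 19 list genes in place of 9. Over all genes tested, 19520 of 30951 were below, in place of 6163 of 17200. Leaving out each dog in turn gave 4 genes of the set above and 2 to 3 below, and 42 to 44 list genes above and 8 to 9 below. None of the 8 genes other than DLA88 passed the test of spread under any setting run, and DLA88 was not given this test. Over all genes tested, 0 to 15 passed in these settings, so nothing is read from this about the set. All 54 recomputed differences of dog 4 moved by less than the SD of dogs 1 to 3. The level per coding length was not run, as no lengths were used here. The 7474011 reads of dog 4 limit values of a few reads, as for CIITA, CD74, CD80 and DLA-79.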
